A study of Mus musculus with 18 samples.

Results

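Activins and bone morphogenetic proteins (BMPs), with the secreted proteins that bind and block them, were followed in mouse polycystic kidney tissue through 10 genes: the ligand genes Inhba, Inhbb, Bmp2, Bmp4, Bmp6, Bmp7 and Gdf15, the antagonist genes Fst and Grem1, and the BMP modulator Bmper. The genes were taken as a named family, chosen with earlier results of these data known. Their rows were found by symbol among the 32285 genes of the count table. All 10 were present, and 8 passed the filter on low counts that left 16034 genes for testing. Fst and Bmper did not pass. RNA was sequenced from tissue dissected out of frozen kidney sections in 18 libraries: 6 from cystic regions with high F4/80 signal, 6 from cystic regions with low F4/80 signal and 6 from non-cystic regions. Macrophages carry F4/80, the product of Adgre1, on their surface. Each region type was sampled in the same 3 kidneys, with 2 libraries per kidney and region type, labelled as biological replicates 1 and 2.

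All libraries, the non-cystic ones included, came from male C57BL/6 iKspCre-Pkd1del mice. These mice carry a kidney-specific, tamoxifen-inducible Cre and floxed exons 2 to 11 of Pkd1, the gene most often mutated in autosomal dominant polycystic kidney disease. Tamoxifen was given by gavage at 12.5 mg/kg on postnatal days 18 and 19, and the kidneys were taken in the mild cystic phase as judged by MRI. The age label was 269 for kidneys 1 and 3 and 297 for kidney 2, with no unit. The labels do not say whether the numbered kidneys belong to separate mice. The differing age label sets kidney 2 apart, while kidneys 1 and 3 could be of the same mouse or of separate mice. The p-values therefore rest on how far the differences between region types vary among these kidneys, and a spread between mice cannot be read from them. All 3 groups carry the Pkd1 deletion, so non-cystic tissue is a part of the same diseased kidneys and not a healthy control. The study's title names paracrine factors, those that pass between nearby cells, in the early cyst microenvironment as its subject.

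Library totals ran from 5841975 to 8662288 counts in F4/80-high, 7186518 to 9188813 in F4/80-low and 5366651 to 9002054 in non-cystic regions. Adgre1 averaged 53.9 ± 14.9 CPM (counts scaled to library size) in F4/80-high, 6.55 ± 1.65 in F4/80-low and 2.56 ± 0.962 in non-cystic regions (SD, n = 3 kidneys), which follows the way the regions were chosen. The makeup of the tissue also moved with region type. The summed level of 8 macrophage markers ran from 878 to 2061 CPM over the F4/80-high libraries, 163 to 517 in F4/80-low and 56.8 to 114 in non-cystic. For 7 fibroblast markers the ranges were 680 to 1977, 193 to 561 and 57.7 to 97.7 CPM in the same order, and for 5 markers of injured tubule they were 691 to 1267, 40.7 to 1229 and 1.68 to 16.1 CPM. For 6 proximal tubule markers they were 281 to 8077, 20787 to 53463 and 20512 to 45085 CPM. No marker of these 4 lists was at 0 over the libraries of a region type. Mitochondrially encoded genes took 1.49 to 4.06% of the counts in F4/80-high, 7.71 to 11.2% in F4/80-low and 10.6 to 15.4% in non-cystic libraries. The part of these differences in the results below was not tested. In bulk tissue, fewer cells of a type and less RNA per cell cannot be told apart.

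Activins are dimers of inhibin beta subunits and signal through activin receptors to SMAD2 and SMAD3, while BMPs signal through BMP receptors to SMAD1, SMAD5 and SMAD9. Follistatin, the product of Fst, traps activins outside the cell, and gremlin, the product of Grem1, does the same to BMP2, BMP4 and BMP7. In the kidney, BMP7 is needed for nephron formation in mouse development, and in rodent injury models it has opposed fibrosis.

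Among the 8 tested genes, Inhba and Grem1 rose and Bmp7 fell in F4/80-high against non-cystic regions. Against F4/80-low regions, Inhba rose and Bmp7 fell. None of the 8 passed the test between F4/80-low and non-cystic regions, where 3 had an unadjusted p below 0.05 and the DESeq2 Wald test called 1. These 3 were higher in F4/80-low regions, and at that unadjusted threshold 1499 of the 16034 genes were higher and 376 lower. For comparison, 19.7% of all tested genes were called higher and 19.5% lower in F4/80-high against non-cystic regions, 10.3% higher and 14.0% lower in F4/80-high against F4/80-low regions, and 1.51% higher and 0.0249% lower in F4/80-low against non-cystic regions. The members called were 2 higher and 1 lower, 1 higher and 1 lower, and 0 in the same order. These shares lie near the background, so the counts alone show nothing particular to the family. A gene was called at a Benjamini-Hochberg adjusted p below 0.05 over all 16034 genes, from edgeR's quasi-likelihood test on the 9 sums of counts per kidney and region type. The 3 comparisons share their libraries, so their results are not independent of each other.

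**Figure D1:**
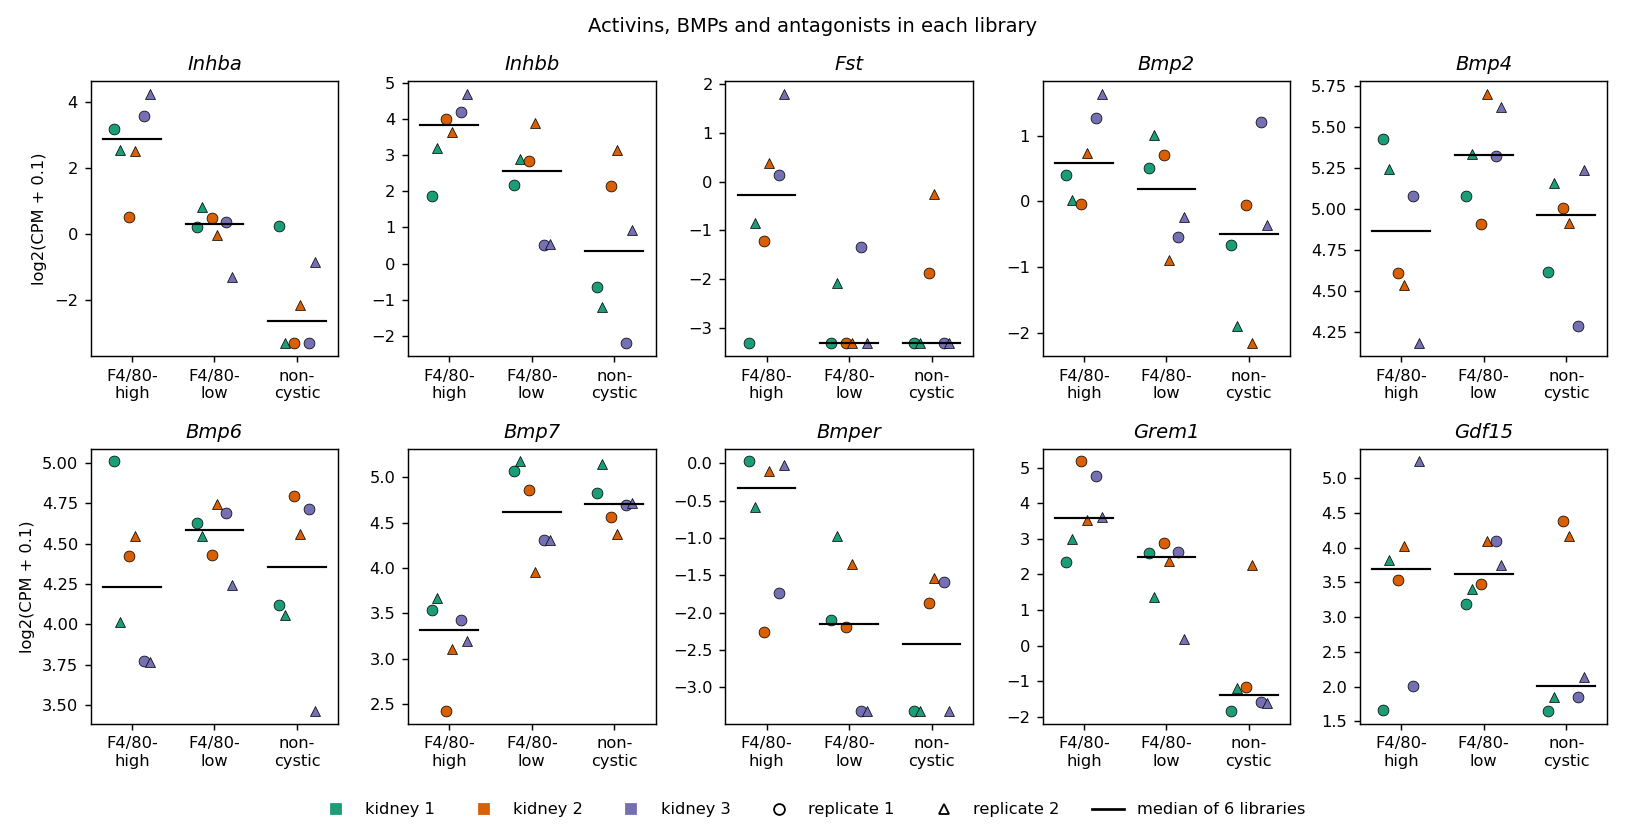
Level of each gene in every library, as log2(CPM + 0.1), by region type, with F4/80-high on the left; colours mark the kidney, shapes the replicate label and bars the median of 6 libraries. Inhba and Grem1 in F4/80-high lie above all non-cystic libraries and Bmp7 lies below them, while Bmp4 and Bmp6 overlap across all 3 region types.

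Inhba (ENSMUSG00000041324, chromosome 13, 16011851 to 16031621, plus strand, GRCm38) encodes the inhibin beta A subunit, and a pair of these subunits forms activin A. Its library levels had a lowest value of 1.31, a median of 7.28 and a highest value of 18.9 CPM in F4/80-high regions. The values were 0.299, 1.12 and 1.64 CPM in F4/80-low regions and 0, 0.0616 and 1.07 CPM in non-cystic regions. Every F4/80-high library was above every non-cystic library, and 1 F4/80-high library, kidney 2 replicate 1 at 1.31 CPM, lay within the F4/80-low range. In counts, the 6 libraries summed to 478 in F4/80-high, 47 in F4/80-low and 9 in non-cystic regions, and 3 non-cystic libraries had none. The log2 fold change was 5.02 ± 0.67 (SE, 95% interval 3.53 to 6.52, adjusted p = 0.0005355) for F4/80-high against non-cystic regions, higher in 3 of 3 kidneys. It was 2.79 ± 0.56 (95% interval 1.55 to 4.03, adjusted p = 0.007612) for F4/80-high against F4/80-low regions, again in 3 of 3 kidneys. For F4/80-low against non-cystic regions it was 2.23 ± 0.72 (adjusted p = 0.2205), which did not pass. The difference from non-cystic regions was 6.32 without non-cystic kidney 1 replicate 1, which held 6 of the 9 counts, and 4.22 without kidney 3. The call against F4/80-low regions was lost without kidney 1 (log2 fold change 2.96, adjusted p = 0.05545) and with the libraries labelled replicate 1 alone (2.21, adjusted p = 0.1661).

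Inhba and Grem1 were the members called higher around F4/80-high cysts, and the 250 bases upstream of their RefSeq starts (GRCm38.p6) are printed here 5′ to 3′ on the gene's strand, so that the ends lie next to the start. The Inhba stretch is chr13:16011601-16011850, plus strand, and the Grem1 stretch is chr2:113758649-113758898, minus strand. Capitals mark a match to a searched motif.
Inhba: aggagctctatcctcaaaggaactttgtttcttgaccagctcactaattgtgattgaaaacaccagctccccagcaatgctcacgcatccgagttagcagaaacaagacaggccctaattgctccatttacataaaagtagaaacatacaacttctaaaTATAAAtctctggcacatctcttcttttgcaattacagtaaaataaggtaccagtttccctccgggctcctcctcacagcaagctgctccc
Grem1: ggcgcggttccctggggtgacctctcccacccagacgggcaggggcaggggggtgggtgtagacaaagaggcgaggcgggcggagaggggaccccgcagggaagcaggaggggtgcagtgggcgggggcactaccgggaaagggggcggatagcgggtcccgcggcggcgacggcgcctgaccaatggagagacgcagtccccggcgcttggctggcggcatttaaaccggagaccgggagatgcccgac
A reference stretch was at hand for 7 of the 10 genes, 8 stretches in all, since Gdf15 has more than 1 start. They were searched on both strands for 4 motifs picked with the expression results known: the AP-1 site TGANTCA, the cAMP response element TGACGTCA, the C/EBP-ATF element TGATGCAA and the TATA box TATAAA. The letters of none of the first 3 were found in any of the 8 stretches. The letters TATAAA were found once, in Inhba, 91 to 86 bases before the start. Of 32851 mouse promoters of the same length, 6.75% held the AP-1 site, 1.55% the cAMP response element, 0.792% the C/EBP-ATF element and 12.4% the TATA box. A match of letters is a description of the sequence and shows neither binding nor a working promoter element at that position.

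Inhbb (ENSMUSG00000037035, chromosome 1, 119415465 to 119422248, minus strand) encodes the beta B subunit, found in activin B. Its library levels ran from 3.57 through a median of 14.1 to 25.8 CPM in F4/80-high regions, 1.32 through 5.73 to 14.6 CPM in F4/80-low regions and 0.117 through 1.18 to 8.62 CPM in non-cystic regions. The region types overlapped. Kidney 2 was high in non-cystic tissue, at 4.32 and 8.62 CPM in its libraries, and the other 4 non-cystic libraries had at most 1.82 CPM. Within every kidney the sum was nevertheless higher in F4/80-high than in non-cystic tissue: 6.00 against 0.442 CPM in kidney 1, 13.8 against 6.95 CPM in kidney 2 and 21.3 against 0.699 CPM in kidney 3. The log2 fold change of 2.95 ± 1.00 (SE, 95% interval 0.57 to 5.34, adjusted p = 0.05575) missed the threshold, and it passed in 13 of 33 alternative settings. Against F4/80-low regions, the F4/80-high log2 fold change was 1.44 ± 0.94 (adjusted p = 0.3151).

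Fst (ENSMUSG00000021765, chromosome 13, 114452290 to 114458951, minus strand) encodes follistatin. Its 6 libraries summed to 57 counts in F4/80-high regions, 3 in F4/80-low and 7 in non-cystic regions. In F4/80-high tissue the kidneys had 4, 16 and 37 counts, and kidney 3 replicate 2 alone held 27 of them. The ratio corrected for library size was 14.3 (95% counting interval 4.66 to 71.6) against F4/80-low and 5.38 (2.45 to 14.0) against non-cystic regions; these intervals cover counting error only. With all genes kept in the test, the log2 fold change was 3.44 against F4/80-low (adjusted p = 0.07285) and 2.43 against non-cystic regions (adjusted p = 0.1798), and neither passed. The exons of Fst overlap Gm47040 on the other strand by 115 bases, and the library kit does not mark strand.

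Grem1 (ENSMUSG00000074934, chromosome 2, 113746164 to 113758646, minus strand) encodes gremlin 1. Its library levels ran from 4.996 through a median of 11.9 to 36.1 CPM in F4/80-high regions, 1.05 through 5.54 to 7.32 CPM in F4/80-low regions and 0.178 through 0.284 to 4.68 CPM in non-cystic regions. F4/80-high and non-cystic libraries did not overlap. Of the 46 non-cystic counts, 38 were in kidney 2 replicate 2, and the other 5 non-cystic libraries had 1 or 2 counts each. The log2 fold change was 4.06 ± 0.66 (SE, 95% interval 2.54 to 5.57, adjusted p = 0.002202) for F4/80-high against non-cystic regions, higher in 3 of 3 kidneys. Without non-cystic kidney 2 replicate 2 it was 5.70, with the libraries labelled replicate 1 alone 6.28, with replicate 2 alone 3.08 and without kidney 2 5.57, and the call stood in each. The step between F4/80-low and non-cystic regions was 2.42 ± 0.66 (adjusted p = 0.1598) and did not pass, but it passed without that library (4.07, adjusted p = 0.003366) and by the DESeq2 Wald test (2.59, adjusted p = 0.001168). F4/80-high against F4/80-low regions gave 1.63 ± 0.57 (adjusted p = 0.06945), which passed in 10 of 33 alternative settings. The library with the 38 counts also had the highest non-cystic sums of fibroblast (97.7 CPM), macrophage (114 CPM) and smooth muscle markers (101 CPM). It was highest too for intercalated cell (838 CPM), principal cell (265 CPM) and injured tubule markers (16.1 CPM, with 14.7 CPM in kidney 3 replicate 1). The part of these markers in its Grem1 level was not tested.

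Bmper (ENSMUSG00000031963, chromosome 9, 23223076 to 23485200, plus strand) encodes a secreted BMP-binding protein known to raise or lower BMP signalling. It had 33 counts in F4/80-high, 7 in F4/80-low and 5 in non-cystic regions. The library-size corrected ratio was 4.36 (95% counting interval 1.69 to 14.3) for F4/80-high against non-cystic and 3.56 (1.55 to 9.52) against F4/80-low regions. With all genes kept, the adjusted p was 0.2751 against non-cystic and 0.3652 against F4/80-low regions, so no difference between region types passed at this depth.

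**Figure D2:**
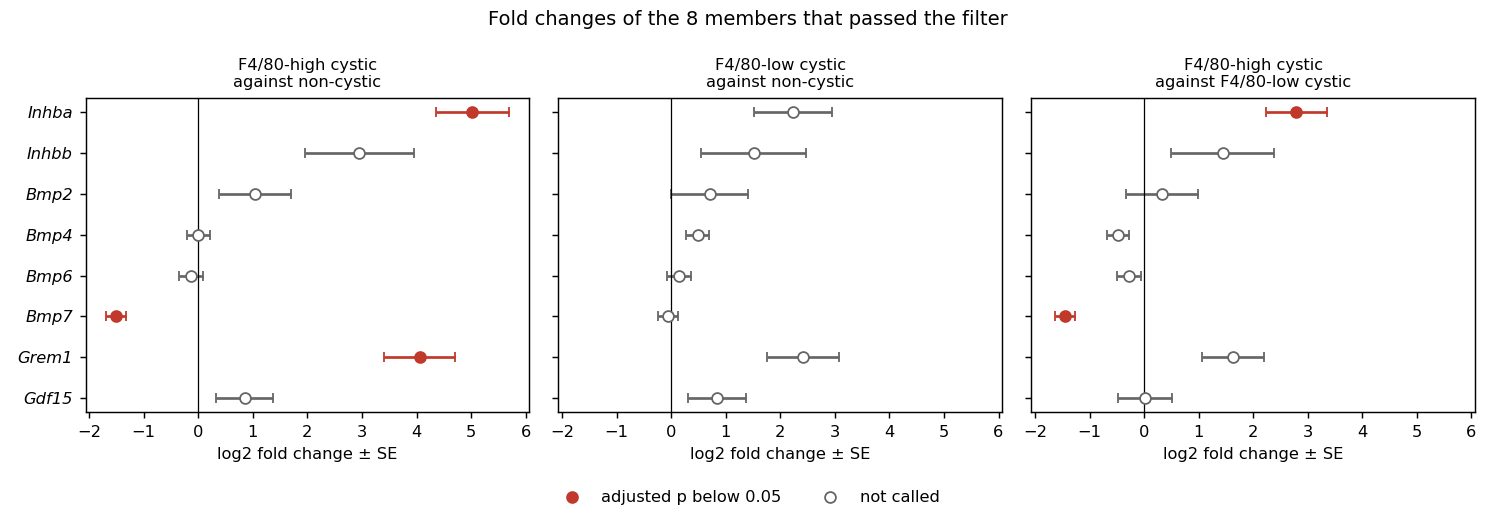
Log2 fold change with its SE for the 8 genes that passed the filter, in the 3 comparisons; filled points passed at an adjusted p below 0.05. Bmp7 has narrow errors and lies near -1.5 in both comparisons of F4/80-high regions, while Inhbb has the widest errors. The called genes Inhba and Grem1 have errors about as wide as those of Bmp2, with SEs of 0.67, 0.66 and 0.66 in F4/80-high against non-cystic regions.

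Bmp7 (ENSMUSG00000008999, chromosome 2, 172868012 to 172940321, minus strand) was the member that fell. Its library levels ran from 5.26 through a median of 9.86 to 12.6 CPM in F4/80-high regions, 15.4 through 24.4 to 36.0 CPM in F4/80-low regions and 20.7 through 25.9 to 35.3 CPM in non-cystic regions. No F4/80-high library reached the lowest library of the other region types, and F4/80-low and non-cystic libraries overlapped. The kidney sums were 11.8, 6.98 and 9.83 CPM in F4/80-high, against 34.9, 23.1 and 20.1 CPM in F4/80-low and 32.7, 22.2 and 26.01 CPM in non-cystic tissue for kidneys 1, 2 and 3. The log2 fold change was -1.51 ± 0.19 (SE, adjusted p = 0.00036) for F4/80-high against non-cystic regions and -1.45 ± 0.19 (adjusted p = 0.001673) against F4/80-low regions, lower in 3 of 3 kidneys each time. With total counts in place of scaled library sizes, which moved the median of all genes by 0.61, the difference from non-cystic regions was -0.89 and still passed. F4/80-low against non-cystic regions gave -0.06 ± 0.18 (95% interval -0.47 to 0.34, adjusted p = 0.9523). Bmp7 is made by tubule cells and podocytes. In F4/80-high, F4/80-low and non-cystic libraries, proximal tubule markers had median sums of 1975, 26114 and 30215 CPM, thick ascending limb markers 421, 1409 and 969 CPM, distal convoluted and connecting tubule markers 104, 434 and 1714 CPM and podocyte markers 127, 156 and 63.6 CPM. Principal cell markers had 80.4, 119 and 165 CPM and intercalated cell markers 162, 112 and 360 CPM in the same order. In F4/80-high against non-cystic regions, 5 of 6 proximal tubule markers fell, as did 2 of 4 of the thick ascending limb and 3 of 4 of the distal convoluted and connecting tubule, and 0 of 5 podocyte markers passed in either direction. Of principal cell markers 1 of 5 fell and of intercalated cell markers 2 of 5, where 19.5% of all genes tested were called lower. Against F4/80-low regions, 5 of 6 proximal tubule, 3 of 4 thick ascending limb and 2 of 4 distal convoluted and connecting tubule markers fell. There 1 of 5 principal cell and 0 of 5 intercalated cell markers fell, where 14.0% of all genes tested were called lower. The part of these markers in the Bmp7 result was not tested.

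Bmp4 and Bmp6 passed in none of the 3 comparisons on the 9 sums. Bmp4 (ENSMUSG00000021835, chromosome 14, 46383520 to 46390669, minus strand) ran from 18.0 through a median of 29.0 to 43.0 CPM in F4/80-high, 30.0 through 40.2 to 52.1 CPM in F4/80-low and 19.4 through 31.1 to 37.7 CPM in non-cystic libraries. The ranges overlapped in all pairs. Its log2 fold change was 0.00 ± 0.21 (95% interval -0.46 to 0.46, adjusted p = 0.9914) in F4/80-high over non-cystic regions, 0.49 ± 0.21 (adjusted p = 0.3905) for F4/80-low against non-cystic and -0.48 ± 0.21 (adjusted p = 0.1166) for F4/80-high against F4/80-low regions. With total counts the difference between F4/80-high and non-cystic regions was 0.61 (adjusted p = 0.0376), the same size as the shift of all genes. With the libraries labelled replicate 2 alone, F4/80-high against F4/80-low regions gave -0.90 (adjusted p = 0.04327). Bmp6 (ENSMUSG00000039004, chromosome 13, 38345107 to 38500302, plus strand), best known for setting hepcidin and thus iron balance from the liver, ran from 13.5 through 18.7 to 32.1 CPM, 18.9 through 23.9 to 26.8 CPM and 10.9 through 20.4 to 27.6 CPM in the same order. Its F4/80-high log2 fold change was -0.13 ± 0.22 (95% interval -0.62 to 0.36, adjusted p = 0.6815) against non-cystic and -0.28 ± 0.22 (adjusted p = 0.3918) against F4/80-low regions. Both genes overlap exons on the other strand, Bmp4 those of Gm15217 by 89 bases and Bmp6 those of Txndc5 by 224 bases.

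Bmp2 (ENSMUSG00000027358, chromosome 2, 133552159 to 133562885, plus strand), a ligand known for bone formation, had few counts: 92 in F4/80-high, 49 in F4/80-low and 32 in non-cystic regions. Of the non-cystic counts, 19 were in kidney 3 replicate 1. The log2 fold change was 1.04 ± 0.66 (95% interval -0.44 to 2.52, adjusted p = 0.245) for F4/80-high against non-cystic regions, an interval that reaches from below 0 to a large rise. It was 0.33 ± 0.66 (adjusted p = 0.753) against F4/80-low regions.

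Gdf15 (ENSMUSG00000038508, chromosome 8, 70629393 to 70632456, minus strand) encodes a stress-induced, distant member of the family that signals through the brainstem receptor GFRAL. Its library levels ran from 3.06 through a median of 12.8 to 37.8 CPM in F4/80-high regions, 9.05 through 12.2 to 17.1 CPM in F4/80-low regions and 3.02 through 3.92 to 20.9 CPM in non-cystic regions. Libraries of the same kidney and region type differed widely in F4/80-high tissue, with 3.06 and 14.1 CPM in kidney 1 and 3.91 and 37.8 CPM in kidney 3. In non-cystic tissue both libraries of kidney 2 were high, at 20.9 and 18.0 CPM, and the other 4 had at most 4.32 CPM. Kidney 2 was the only kidney in which the F4/80-high sum, 13.9 CPM, was below the non-cystic sum, 19.5 CPM. The log2 fold change was 0.85 ± 0.53 (95% interval -0.37 to 2.07, adjusted p = 0.2399) in F4/80-high over non-cystic regions, 0.84 ± 0.53 (adjusted p = 0.6519) for F4/80-low against non-cystic and 0.02 ± 0.50 (95% interval -1.13 to 1.16, adjusted p = 0.9869) for F4/80-high against F4/80-low regions. Without kidney 2, the difference between F4/80-high and non-cystic regions was 1.79 and passed (adjusted p = 0.00743). With the libraries labelled replicate 1 alone it was -0.36. Gfral, the receptor gene, had 2 counts in F4/80-high, 2 in F4/80-low and 0 in non-cystic regions.

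Levels were compared between genes as CPM per kb of exon. In F4/80-high regions the order was Bmp4 at 13.3 ± 3.85, Gdf15 at 7.33 ± 2.87, Bmp6 at 5.09 ± 1.46, Grem1 at 3.94 ± 2.12, Inhbb at 3.22 ± 1.79, Bmp7 at 2.37 ± 0.601, Inhba at 1.34 ± 0.894, Bmp2 at 0.458 ± 0.237, Fst at 0.221 ± 0.204 and Bmper at 0.119 ± 0.0287 (SD, n = 3 kidneys). In F4/80-low regions Bmp4 again led with 18.2 ± 1.82, and Gdf15 (7.06 ± 1.57), Bmp7 (6.48 ± 1.95) and Bmp6 (6.06 ± 0.204) lay within their spread of each other, ahead of Inhbb (1.39 ± 1.08) and Grem1 (1.15 ± 0.340). In non-cystic regions Bmp4 had 13.1 ± 1.39 and was followed by Bmp7 (6.71 ± 1.32), Bmp6 (5.48 ± 1.07) and Gdf15 (4.80 ± 4.97). Lower means were those of Inhbb (0.634 ± 0.866), Grem1 (0.275 ± 0.373), Bmp2 (0.234 ± 0.213) and Inhba (0.0396 ± 0.0381). The step from Gdf15 to Inhbb there, 4.17, was within their summed SDs of 5.84. Between neighbours in the order, the difference exceeded the summed SDs for Bmp4 over the next gene in F4/80-low and non-cystic regions, and in F4/80-low regions also for Bmp6 over Inhbb, Grem1 over Bmp2 and Inhba over Bmper. In F4/80-high regions no 2 neighbours differed by more than their summed SDs. Bmp7 was the sixth of the 10 in F4/80-high, the third in F4/80-low and next after Bmp4 in non-cystic regions. In single libraries, Grem1 was above Bmp7 per kb in 4 of 6 F4/80-high, 0 of 6 F4/80-low and 0 of 6 non-cystic libraries, a pair picked after the values were seen. Inhbb was above Inhba per kb in all F4/80-low libraries and in all but 1 library each of the F4/80-high and non-cystic regions.

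**Figure D3:**
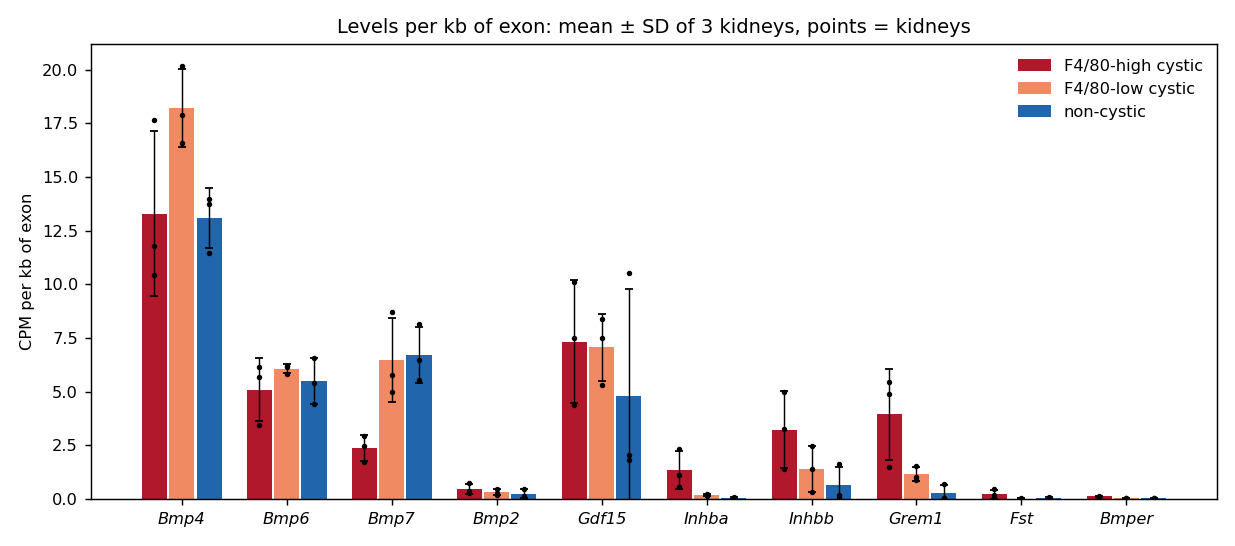
Mean level in CPM per kb of exon for each gene (bars start at 0; error bars are the SD over 3 kidneys, points are kidneys), with F4/80-high, F4/80-low and non-cystic regions from left to right. Bmp4 is the tallest in each region type, Bmp7 is 2.37 in F4/80-high against 6.71 in non-cystic regions, and Grem1 is 3.94 against 0.275.

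The genes whose levels tracked each member most closely over the 9 sums were taken by the smallest root mean square distance between centred log2 CPM values among 8624 or 8625 genes averaging 3 or more in log2 CPM, as a description. Inhba lay nearest to Apoe (distance 0.47), which encodes a lipid carrier abundant in macrophages, and to Ccr2 (0.54), a monocyte chemokine receptor. The regions were chosen by a macrophage signal, and fibroblast and injured tubule markers also had their highest median sums where it was high. Nearness over these sums therefore cannot tell which cells made the RNA of Inhba or of the other members, which was not tested. Grem1 lay nearest to Serpina3g (0.50), a protease inhibitor gene, and Aldh1a2 (0.57), a retinoic acid synthesis enzyme. Inhbb lay nearest to Akap12 (0.52), a kinase scaffold, and Acta2 (0.60), the smooth muscle actin. Bmp7 lay nearest to Anpep (0.23), a proximal tubule brush-border peptidase, and Hdhd3 (0.24). The nearest genes to the others were Pard3b and Calcrl for Bmp2, Dusp22 and Evc2 for Bmp4, Lrrc57 and Zscan29 for Bmp6, and Ifrd1 and Tsc22d1 for Gdf15.

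Around these 10 genes, 79 others of the same pathways were examined in 5 lists by role, of which 50 passed the filter. The lists were chosen with earlier results of these data known, and some genes passed the filter through their F4/80-high sums. The counts of the lists are therefore a description and no test of the pathways. In F4/80-high against non-cystic regions 17 rose and 5 fell, with a median log2 fold change of 0.60 beside 0.04 over all genes tested, of which 19.7% were called higher and 19.5% lower. In F4/80-high against F4/80-low regions 10 rose and 1 fell, where 10.3% of all genes were called higher and 14.0% lower, and in F4/80-low against non-cystic regions 1 rose, where 1.51% of all genes were called higher. Of the 22 genes called in F4/80-high against non-cystic regions, Bmp1, Lefty1, Gdf11, Fstl1 and Nbl1 kept the call in 33 of 33 alternative settings, and the other 17 lost it in 1 to 18, with 15 of them losing it without kidney 1.

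Among the other antagonists, 4 of 11 tested rose and 3 fell in F4/80-high against non-cystic regions (all genes: 19.7% higher, 19.5% lower). Nbl1, a BMP antagonist of the DAN family, averaged 26.2 ± 6.42 CPM in F4/80-high, 5.82 ± 3.36 in F4/80-low and 1.27 ± 0.616 in non-cystic regions (SD, n = 3), and rose by 4.45 ± 0.56 on the log2 scale in F4/80-high regions over non-cystic ones (adjusted p = 0.0007511). Fstl1, a secreted glycoprotein of the follistatin-like family, averaged 167 ± 72.6, 47.1 ± 4.86 and 17.3 ± 1.60 CPM in the same order. It rose in each comparison, by 3.21 ± 0.29 (adjusted p = 8.57e-05) in F4/80-high regions over non-cystic ones, 1.78 ± 0.27 (adjusted p = 0.002692) for F4/80-high against F4/80-low and 1.44 ± 0.27 (adjusted p = 0.03395) for F4/80-low against non-cystic regions. The last of these calls was lost in 9 of 33 alternative settings. Bambi, a decoy receptor without kinase activity, rose by 2.07 ± 0.39 (adjusted p = 0.002924), and Twsg1, which modulates chordin, by 0.91 ± 0.27 (adjusted p = 0.02413). The Bambi call was lost in 1 of 33 alternative settings and that of Twsg1 in 3. The 3 that fell against non-cystic tissue were Dand5 (-0.90 ± 0.20), a Nodal antagonist in the mouse embryo, Sostdc1 (-0.99 ± 0.26), which binds BMP7 and is made in the distal nephron, and Kcp (-1.24 ± 0.33), a secreted protein that enhances BMP7 signalling in mouse kidney. With total counts in place of scaled library sizes, none of the 3 passed. Distal convoluted and connecting tubule markers had median sums of 104, 434 and 1714 CPM in F4/80-high, F4/80-low and non-cystic libraries, and their part in the Sostdc1 result was not tested. Twsg1, Sostdc1 and Kcp fall outside the naming rule and were picked with their values known.

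Of the other ligands, 5 of 10 tested rose in F4/80-high against non-cystic regions and none fell, beside 19.7% of all genes higher and 19.5% lower. Some of the 10, such as Gdf3 and Inha, passed the filter on low counts through their F4/80-high sums. In the non-cystic sums these had at most 0.585 and 0.439 CPM, so they could hardly be called lower. The absence of falls is therefore not read as a result. Bmp1, which despite its name is a metalloprotease that processes procollagen and cleaves chordin, averaged 31.1 ± 11.7 CPM in F4/80-high, 10.7 ± 0.534 in F4/80-low and 4.44 ± 0.627 in non-cystic regions, a log2 fold change of 2.77 ± 0.28 (adjusted p = 0.0001404) against non-cystic and 1.502 ± 0.263 (adjusted p = 0.00451) against F4/80-low regions, the last call being lost without kidney 1. Lefty1, an inhibitor of Nodal rather than an activating ligand, rose by 3.15 ± 0.49 (adjusted p = 0.001079) to 4.35 ± 1.58 CPM in F4/80-high, against 0.481 ± 0.170 CPM in non-cystic regions. Gdf11, an activin-like ligand, rose by 1.96 ± 0.34 (adjusted p = 0.001853) and Gdf3 by 3.27 ± 0.97 (adjusted p = 0.02386). Gdf3 had 134 counts in F4/80-high and 10 in non-cystic regions. Bmp8b, named after its value was seen, rose by 0.70 ± 0.22 (adjusted p = 0.03128). The Bmp8b call was lost in 9 of 33 alternative settings, among them without each of kidneys 1, 2 and 3. The exons of Bmp8b overlap genes on the other strand by 472 bases, those of Kcp by 263 bases and those of the receptor gene Acvrl1 by 127 bases. Inha, whose product turns the beta subunits into inhibins, had 49 counts in F4/80-high and 6 in non-cystic regions and did not pass (log2 fold change 2.67 ± 1.25, adjusted p = 0.1209).

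Of 12 receptor genes tested, 4 rose and 1 fell in F4/80-high against non-cystic regions (all genes: 19.7% higher, 19.5% lower). The BMP type I receptor Acvr1 rose by 1.39 ± 0.35 (adjusted p = 0.01187), the endothelial type I receptor Acvrl1 by 1.04 ± 0.28 (adjusted p = 0.01412), the co-receptor Rgmb by 1.04 ± 0.32 (adjusted p = 0.0254) and the type II receptor Bmpr2 by 0.50 ± 0.16 (adjusted p = 0.03068). The Bmpr2 call was lost in 8 of 33 alternative settings, among them without each of kidneys 1, 2 and 3. That of Rgmb was lost in 3, and those of Acvr1 and Acvrl1 in 2 each. The activin type II receptor Acvr2b, named after its value was seen, fell by 0.85 on the log2 scale (adjusted p = 0.04238), a call lost in 18 of 33 alternative settings. Acvr1 and Rgmb also rose against F4/80-low regions, by 1.29 ± 0.35 and 0.99 ± 0.32, and these calls were lost in 5 and 17 of 33 settings, in both genes without each of kidneys 1, 2 and 3.

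Of 11 SMAD genes and their regulators, 3 rose in F4/80-high against non-cystic regions, a share near the 19.7% of all genes called higher. Smad1, which carries BMP signals, rose by 1.17 ± 0.28 (adjusted p = 0.009427), and the SMAD co-repressors Ski by 0.68 ± 0.19 (adjusted p = 0.01823) and Skil by 0.76 ± 0.24 (adjusted p = 0.02948). The Skil call was lost in 6 of 33 alternative settings, that of Ski in 3 and that of Smad1 in 1. Against F4/80-low regions, Smad2, which carries activin signals, rose by 0.92 ± 0.18 (adjusted p = 0.006547), with Ski and Skil; the Smad2 call was lost in 2 of 33 settings, that of Ski in 13 and that of Skil in 10. Of 6 target genes tested, 1 rose and 1 fell against non-cystic regions, near the 19.7% of all genes higher and 19.5% lower. The BMP-responsive Atoh8 rose by 2.75 ± 0.66 (adjusted p = 0.009203), a call lost without kidney 2 and with the libraries labelled replicate 1 alone. Of the Id genes, the best known BMP targets, Id2 fell by 1.03 on the log2 scale (adjusted p = 0.01261), with 418 ± 120 CPM in F4/80-high against 839 ± 114 CPM in non-cystic regions, a call lost in 4 of 33 settings, among them total counts and leaving out kidney 1 or kidney 2. Id1 gave -0.40 ± 0.25 (adjusted p = 0.2382). Id3 rose by 0.85 ± 0.23 (adjusted p = 0.02517) in F4/80-high against F4/80-low regions, with 251 ± 48.1 CPM against 138 ± 15.3 CPM, and had 186 ± 32.7 CPM in non-cystic regions. The Id3 call was lost in 7 of 33 settings, among them without each of kidneys 1, 2 and 3.

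**Figure D4:**
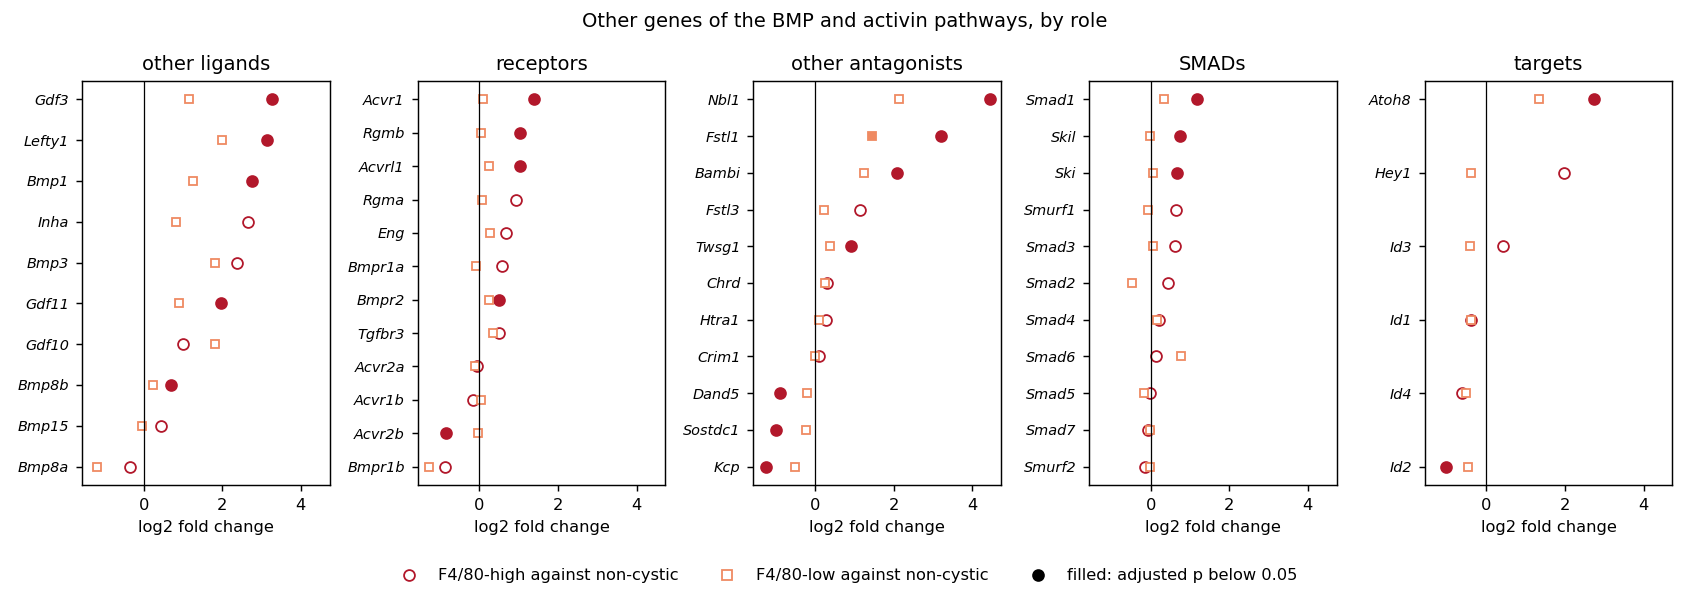
Log2 fold changes of the 50 tested pathway genes against non-cystic regions, by role, for F4/80-high (circles) and F4/80-low regions (squares); filled symbols passed at an adjusted p below 0.05. The F4/80-high circles of Nbl1, Fstl1, Gdf3 and Lefty1 lie beyond 3, Kcp, Id2, Sostdc1, Dand5 and Acvr2b are the filled circles left of 0, and Fstl1 has the only filled square.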

How the data were processed

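The deposited values are counts: whole numbers per gene and library, with no sign of scaling. Tools named in the submitters' processing notes, with no role given, are HTSeq 0.11.0, fastp 0.20.1 and FastQC 0.11.9, on build GRCm38 (mm10). Which aligner, annotation and strand setting were used is not given in the sources used here. Symbols, positions and exon lengths came from GENCODE M21, which placed 32235 of the 32285 identifiers, and upstream sequences from RefSeq.

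The 2 libraries from each kidney in a region type were added up, and edgeR 4.0.16 under R 4.3.3 was run on the 9 sums (TMM scaling, filterByExpr by region type, robust quasi-likelihood test), with region type and kidney (as a block) as terms (4 residual degrees of freedom) and Benjamini-Hochberg adjustment over 16034 genes. The SE was derived from the fold change and the F statistic, and 95% intervals are from the same fit. The labels pair the region types by kidney; deviations of sums from the same kidney correlated at -0.154 to 0.275 (9 pairs) and of different kidneys at -0.232 to 0.153 (18 pairs). Library CPM used TMM factors of the 18 libraries, kidney CPM those of the 9 sums. Counts carry no molecular identifiers, so counting intervals cover counting error only. The tests were tried on simulated counts.

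The 10 genes and the lists were chosen with earlier results of these data known. Named pathway genes were the called ones with the smallest p, up to 4 per list and comparison. 1 further target gene was left out of the lists and their counts and is not reported here. Alternatives, 33 in all, were DESeq2 1.42.0 size factors and Wald test, upper quartile and total-count scaling, no filter and a stricter one (50 counts in 3 sums), no block, 18 separate libraries (edgeR, or limma 3.58.1 voom), 2 region types alone, 1 replicate label alone, and each kidney or library left out. No sequencing batch is labelled.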

Additional observations from a re-analysis of the deposited data

Results flagged for a closer look

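In 4 of 30 groups of 6 libraries (10 genes in 3 region types), 1 library lay apart from the other 5 by Dixon's test at the 95% level. For independent, normally distributed values chance gives about 1 in 20. CPM values near 0 and libraries paired by kidney do not meet that condition, so 4 of 30 is not shown to be an excess. Fst had 3.40 CPM in F4/80-high kidney 3 replicate 2, and the next library had 1.195 CPM. Fst also had 0.739 CPM in non-cystic kidney 2 replicate 2, on 6 counts. Grem1 had 4.68 CPM in that same non-cystic library, against at most 0.345 CPM in the other 5. Bmp2 had 2.22 CPM in non-cystic kidney 3 replicate 1, on 19 counts, and the next library had 0.863 CPM.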

How the results depend on the processing

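Inhba, Grem1 and Bmp7 in F4/80-high against non-cystic regions, and Bmp7 against F4/80-low regions, kept their direction and their call in 33 of 33 alternative settings. The number of members called was 3 in F4/80-high against non-cystic regions (5 with total counts, 3 to 5 leaving out a kidney or library). It was 0 in F4/80-low against non-cystic regions (1 with the DESeq2 Wald test and 1 with replicate 1 alone, in each case Grem1, and 0 to 1 leaving out a kidney or library). In that comparison 3 members had an unadjusted p below 0.05, where 1499 of all 16034 genes were higher and 376 lower at that threshold. The number called was 2 in F4/80-high against F4/80-low regions (1 with replicate 1 alone, 1 to 3 leaving out a kidney or library). The lowest of the last range came without kidney 1, and the highest of the first without kidney 2, where Inhbb and Gdf15 passed; the cause was not tested.

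Of all genes, 6289, 246 and 3895 were called for F4/80-high over non-cystic, F4/80-low over non-cystic and F4/80-high over F4/80-low regions. Leaving out a kidney or library gave 3359 to 6550, 23 to 578 and 988 to 4214; the lowest values came without kidney 1. F4/80-low against non-cystic regions also gave 144 without kidney 2, 578 without kidney 3, 131 and 388 without non-cystic kidney 2 replicates 1 and 2, 31 without F4/80-low kidney 2 replicate 2 and 76 without F4/80-low kidney 3 replicate 1, and F4/80-high against F4/80-low regions gave 2266 without kidney 2. Replicate 1 alone gave 3707, 33 and 1905, and replicate 2 alone 46 in F4/80-low against non-cystic and 2575 in F4/80-high against F4/80-low regions; these fits hold fewer counts. F4/80-low against non-cystic regions gave 523 with no filter, 675 with the Wald test and 601 with 18 separate libraries. F4/80-high against F4/80-low regions gave 5922 with voom and 2413 with the 2 region types alone. Without the kidney block the counts were 6355, 262 and 4034, and no member gained or lost a call, while Sostdc1 lost its call against non-cystic regions.

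Total counts moved the median of all genes by 0.61, 0.12 and 0.48 on the log2 scale in the 3 comparisons, and turned 3156 higher and 3133 lower genes in F4/80-high against non-cystic regions into 6608 and 1463; upper quartile factors moved it by 0.12 there and gave 3621 and 2685. The members that changed sign under an alternative were uncalled in that comparison. In F4/80-high against non-cystic regions, Bmp6 was 0.46 with total counts and 0.0345 with replicate 2 alone, Bmp4 was -0.0044 with no filter and -0.45 with replicate 2 alone, and Gdf15 was -0.36 with replicate 1 alone. In F4/80-low against non-cystic regions, Bmp7 was 0.0716 with total counts and 0.0807 with replicate 1 alone, and Bmp6 was -0.0011 with replicate 1 alone. In F4/80-high against F4/80-low regions, with total counts Bmp4 was 0.0202 and Bmp6 0.20, and Gdf15 was -0.0088 with no filter, -0.31 with voom and -1.36 with replicate 1 alone. Leaving out a kidney or library, ranges that crossed 0 were -0.21 to 0.20 for Bmp4 and -0.43 to 0.15 for Bmp6 in F4/80-high against non-cystic regions, -0.0625 to 1.72 for Bmp2, -0.0018 to 0.45 for Bmp6 and -0.25 to 0.0754 for Bmp7 in F4/80-low against non-cystic regions, and -0.22 to 0.95 for Bmp2 and -0.79 to 0.44 for Gdf15 in F4/80-high against F4/80-low regions.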
